A study of Mus musculus with 11 samples.

Results

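The 38 genes described here carry glucose into cardiac cells, take it through glycolysis to pyruvate and lactate, store it as glycogen, and switch pyruvate dehydrogenase on or off. They were chosen by name out of 50600 genes in the count table. The fixed list held glucose and lactate transport, glycolysis, glycogen and pyruvate dehydrogenase kinase or phosphatase genes. No measured value entered the rule, but the list was chosen with earlier results of these data known. All 38 passed the filter on low counts and were among the 15808 genes tested. The question was how these genes behaved in the week after birth, and how they behaved when the right ventricle worked against pulmonary artery banding (PAB), a constriction of the vessel that leaves it.

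RNA was taken from hearts of mice operated on at P0, the day of birth, whose strain is C57BL/6 by label and C57Bl/6J in the study's methods. P3 sham (n = 3) and P7 sham (n = 3) hearts had the chest opened without a band, and P3 PAB (n = 3) and P7 PAB (n = 2) hearts had the pulmonary artery tied over a needle. P3 and P7 are postnatal days 3 and 7. The labels give these mice no engineered allele, and all groups share anaesthesia by cooling and the chest operation. By label the tissue is heart, and by the study's methods it is the ventricles, and neither says that the loaded right ventricle was taken apart from the left. Whether a library came from 1 animal or a pool is not given, and p-values measure the spread between these libraries.

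As background, glucose enters muscle through GLUT1 (Slc2a1), which is common in fetal and growing tissue, and through GLUT4 (Slc2a4), which responds to insulin and marks mature muscle. Most steps of glycolysis can be run by more than 1 isozyme, and striated muscle has its own forms of phosphofructokinase, phosphoglycerate mutase and enolase. The fetal heart burns much glucose and lactate, and after birth the myocardium turns to fatty acids. Pyruvate dehydrogenase admits pyruvate to the mitochondria, the PDK kinases turn it off, and the PDP phosphatases turn it on.

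Levels are given as CPM, a gene's count scaled to the size of its library with TMM factors, and as CPM per kb of exonic length where genes are compared with each other. edgeR's quasi-likelihood test was fitted over all 11 libraries. Genes were called where the fold reached 1.5 and p, adjusted by Benjamini-Hochberg over all genes tested, was no more than 0.05. Rose and fell are used only for called genes. The libraries held 19274045 to 26820228 counts, and the 3 counts that a count of 0 allows came to between 0.114 and 0.148 CPM, which covers counting error only. Replicates differed by more than sampling noise.

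Before the values, 3 features of the libraries need stating. Xist, which is made from the inactive X chromosome, reached 630 to 1061 CPM in P3 sham 1 and all 3 hearts of P7 sham. It was between 0.303 and 0.873 CPM in the other 7, which held Ddx3y of the Y chromosome at 42.9 to 51.0 CPM. At P7 the operation and this difference cannot be told apart by design. Counts of the P7 PAB libraries also fell with gene length, by 0.150 and 0.141 log2 units per doubling of length, while the slope lay between -0.029 and 0.067 in the other 9 libraries. Results at P7 are therefore also given with the length trend removed and with a term for the Xist and Y class, which only P3 sham, the one group with both classes, can inform. The third feature is the mitochondrial share of counts, at 11.4 to 13.1% in the P3 libraries, 21.1 to 22.2% in P7 sham and 18.0 and 18.1% in P7 PAB hearts.

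To check the label of heart, 10 cardiomyocyte genes were summed, and they came to between 53482 and 68974 CPM in every library. At P7, Actc1 and Tnnc1 of these 10 were called higher and Myh6 and Ryr2 lower in PAB hearts. Skeletal muscle uses many of the same glycolytic isozymes. Of its 10 listed genes, Myh4, Myh1, Mylpf, Tnnt3, Tnnc2 and Actn3 were all under 1 CPM in every library. The 10 summed to 1573 to 1777 CPM in P3 sham and 1676 to 1920 in P3 PAB hearts. At P7 they summed to 1544 to 1808 CPM in sham and 1626 to 1944 CPM in PAB hearts. Nearly all of it was Ckm, which heart muscle also makes, and only Myh8 of the 6 tested was called at P7 (0.93). All 6 had log2 differences above 0 in PAB hearts at both ages, with medians of 0.62 at P3 and 0.25 at P7. The part of skeletal muscle in the results was not tested. The erythroid genes, another source of glycolytic RNA, summed to 2247 to 3044 CPM in P7 sham and 3412 to 3912 CPM in P7 PAB hearts, and overlapped between the groups at P3. None of the 7 erythroid genes was called at either age between PAB and sham, and the part of red cells in the results was not tested. Of the other markers at P7, 3 ventricular genes summed to 6997 to 7741 CPM in sham and 9764 to 10384 in banded hearts with 0 called, and 5 atrial genes to 74.9 to 119 and 146 to 171 CPM with 1 higher and 2 lower. The 8 fibroblast genes summed to 5999 to 6067 CPM in sham and 4573 to 5449 in banded hearts, with 2 called lower. Cidea, the 1 brown fat gene tested, was called higher (0.90), and the sums of endothelial, smooth muscle and macrophage genes overlapped, with Egfl7 and Tagln of these called higher and Mrc1 lower. The part of these cells in the results was not tested either. In bulk tissue, fewer cells of a type and less RNA per cell cannot be told apart.

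Together the 38 genes took 1.51% ± 0.109 of all counts in sham hearts at P3 and 1.65% ± 0.0433 in banded ones (SD, n = 3 each). At P7 their share was 1.19% ± 0.0999 with sham operation (SD, n = 3) and 1.85% ± 0.226 with PAB (SD, n = 2). The share was lowest in P7 sham and highest in P7 PAB hearts, with P3 between them. With mitochondrial counts left out, it was 1.58 to 1.80% in P3 sham, 1.84 to 1.90% in P3 PAB, 1.44 to 1.65% in P7 sham and 2.06 and 2.46% in P7 PAB hearts, so that P7 PAB stayed highest and the sham ages overlapped. At P7, 14 of the 38 were higher and 1 was lower in PAB hearts, where 9.63% of all genes tested were called higher and 8.59% lower. Their median log2 fold change was 0.40, beside -0.00 over all genes. At P3, 0 of 38 were called in either direction, where 0.108% of all genes were called higher and 0.019% lower. By unadjusted p in edgeR, 11 of 38 were under 0.05 at P3, beside 8.39% of all genes. The fold change was above 0 in 28 of 38, beside 49.7% of all genes, and the median was 0.12 beside -0.00 over all genes. Marker sums that did not overlap at P3 were higher in PAB hearts, at 62308 to 68717 CPM beside 58331 to 62274 for cardiomyocyte, 7230 to 7691 beside 6240 to 7077 for ventricular, 1349 to 1646 beside 1179 to 1310 for smooth muscle and 32.2 to 35.0 beside 24.3 to 30.9 for brown fat genes. Of these lists 0 genes were called at P3, and their part in the shift was not tested. DESeq2 also called 0 members at P3.

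**Figure D1:**
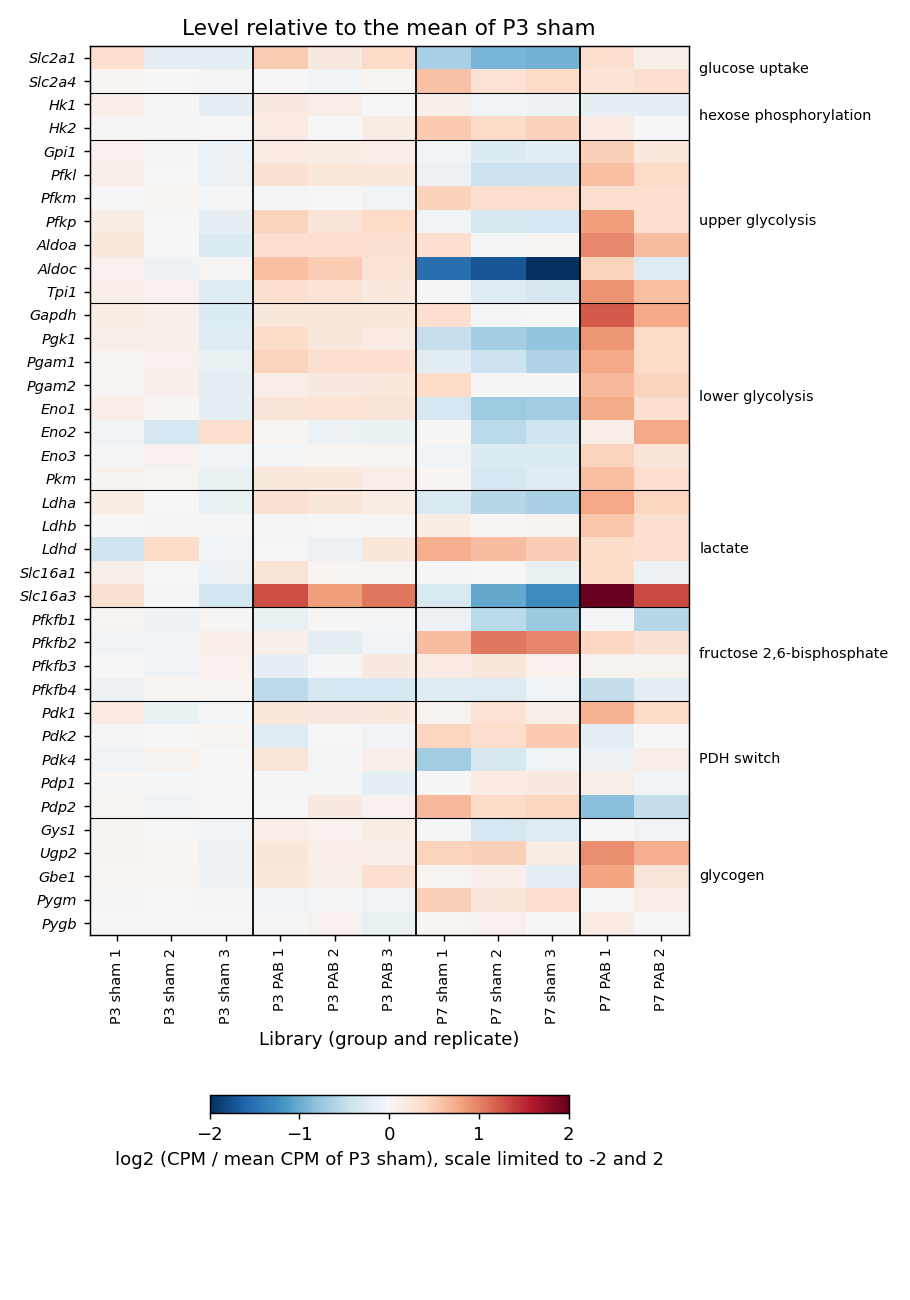
Heat map of the 38 genes (rows, grouped by step) in the 11 libraries (columns, by group and replicate); colour is log2 of CPM over the mean CPM of P3 sham, limited to -2 and 2. Most glycolysis rows are pale at P3, blue or pale in P7 sham and red in P7 PAB, with P7 PAB 1 redder than P7 PAB 2 for most of them and the reverse for Eno2; Slc16a3 is red in all PAB libraries, and Pfkfb2, Pdk2 and Pdp2 run the other way at P7.

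Glucose uptake differed by transporter. Slc2a1 (ENSMUSG00000028645, chromosome 4, 119108711 to 119137983 in GRCm38) was at 29.7, 20.7 and 20.8 CPM in P3 sham, 33.7, 26.9 and 31.0 in P3 PAB, 15.1, 12.4 and 12.3 in P7 sham, and 29.6 and 25.8 in P7 PAB hearts. P7 sham was below all other libraries, and P7 PAB lay within the range of the P3 hearts. Slc2a1 fell between P3 and P7 in sham hearts by 0.84 on the log2 scale (SE 0.14, adjusted p = 0.00042) and under PAB at P7 stood 1.06 above sham (SE 0.15, adjusted p = 6.5e-05). At P3 the groups overlapped, through P3 sham 1, and the difference was 0.37 (SE 0.13, adjusted p = 0.42). Slc2a4, on chromosome 11, was at 97.1, 95.0 and 92.5 CPM in P3 sham, 95.6, 91.7 and 99.0 in P3 PAB, 142, 116 and 124 in P7 sham, and 115 and 118 in P7 PAB hearts. PAB and sham overlapped at both ages, with differences of 0.01 at P3 and -0.13 at P7 (SE 0.08, adjusted p = 0.20), and the difference with age in sham was 0.43 (SE 0.07, adjusted p = 0.0004), which is under the fold required. Of CPM per kb of the 2 transporters, Slc2a1 held at P3 19.8% ± 3.08 in sham and 24.1% ± 1.73 in banded hearts (SD, n = 3 each), and at P7 9.37% ± 0.389 in sham (SD, n = 3) and 19.1% ± 1.84 in banded hearts (SD, n = 2).

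Hexokinase traps glucose in the cell, as Hk1, the form found in most tissues, or Hk2, the form regulated by insulin in muscle. Neither was called in the 4 comparisons of 2 groups, beside 9.63% of all genes called higher and 8.59% lower at P7. Hk2 passed the test of whether the PAB difference changed with age (-0.48, adjusted p = 0.0041), as did 25.9% of all genes. Hk2 was at 129, 123 and 126 CPM in P3 sham, 142, 125 and 140 in P3 PAB, 181, 165 and 173 in P7 sham, and 141 and 126 in P7 PAB hearts. P7 sham stood above all the others, with a log2 difference of -0.38 for P7 PAB against it (SE 0.08, adjusted p = 0.0012) and of 0.46 with age in sham (SE 0.07, adjusted p = 0.00018). Hk1 was between 239 and 309 CPM in all libraries and its difference at P7 was -0.14 (adjusted p = 0.25). Hk2 made up 40.1% ± 2.65 of hexokinase CPM per kb in P3 sham, and at P7 48.2% ± 1.12 with sham operation (SD, n = 3 each) and 44.1% ± 1.93 with PAB (SD, n = 2).

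Phosphofructokinase commits glucose to glycolysis, and its muscle form Pfkm made up most of it: 134 ± 3.46 CPM per kb in P3 sham, beside 24.7 ± 1.81 for the liver form Pfkl and 9.15 ± 0.959 for the platelet form Pfkp (SD, n = 3). Pfkl (chromosome 10, 77986947 to 78010083) was at 177, 165 and 153 CPM in P3 sham, 203, 191 and 192 in P3 PAB, 153, 123 and 123 in P7 sham, and 251 and 215 in P7 PAB hearts. PAB and sham did not overlap at either age. The difference was 0.24 at P3 (SE 0.09, adjusted p = 0.45) and 0.81 at P7 (SE 0.10, adjusted p = 2.0e-05). Pfkp was higher under PAB at P7 by 0.85 (SE 0.13, adjusted p = 8.2e-05), at 218 and 155 CPM beside 116, 97.8 and 97.2. Pfkm was at 442, 459 and 437 CPM in P3 sham, 437, 443 and 429 in P3 PAB, 615, 562 and 572 in P7 sham, and 555 and 555 in P7 PAB hearts. The PAB difference was -0.03 at P3 and -0.07 at P7 (SE 0.07, adjusted p = 0.43), although the P7 groups did not overlap. The muscle share was 79.8% ± 1.29 in P3 sham, 86.4% ± 0.859 in P7 sham (SD, n = 3 each) and 77.4% ± 2.59 in P7 PAB hearts (SD, n = 2).

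The other enzymes of upper glycolysis are glucose-6-phosphate isomerase (Gpi1), the aldolases and triosephosphate isomerase (Tpi1). Tpi1 (chromosome 6, 124810586 to 124814296) was at 738, 709 and 565 CPM in P3 sham, 833, 807 and 764 in P3 PAB, 663, 563 and 539 in P7 sham, and 1253 and 1013 in P7 PAB hearts. Both P7 PAB values lay above every other library, and Tpi1 was higher than in P7 sham by 0.95 (SE 0.12, adjusted p = 2.2e-05). Aldoa, the muscle aldolase, held 99.7 to 99.9% of the aldolase CPM per kb by group mean. It was at 2597 and 2059 CPM in P7 PAB beside 1683, 1302 and 1388 in P7 sham hearts, a rise of 0.68 (SE 0.13, adjusted p = 0.00074). The call was lost with the length trend removed (0.53), with that and the replicate block (0.48) and without P7 PAB 1 (0.50), and with a term for the Xist and Y class the difference was 1.01. Aldoc, the brain form, was a trace at 5.02, 4.41 and 4.83 CPM in P3 sham, 7.18, 6.75 and 5.73 in P3 PAB, 1.68, 1.46 and 1.09 in P7 sham, and 6.51 and 3.99 in P7 PAB hearts. Low as it was, its log2 changes were among the largest of the list, with a fall of 1.76 with age in sham (SE 0.21, adjusted p = 2.8e-05) and a rise of 1.92 under PAB at P7 (SE 0.23, adjusted p = 1.5e-05). Gpi1 differed by 0.53 at P7 (SE 0.09, adjusted p = 0.00027), short of the required fold, and was called in 7 of 23 alternatives, as with the length trend removed (0.66), with a term for the Xist and Y class (0.66), or without P7 sham 1 (0.59) or P7 PAB 2 (0.66). Of 7 genes of upper glycolysis, 5 were called higher at P7, beside 9.63% of all genes, and Pfkm and Gpi1 were not called.

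Lower glycolysis turns triose phosphate into pyruvate and makes ATP. Of its 8 genes, 6 were higher in P7 PAB hearts and 0 were lower, beside 9.63% and 8.59% of all genes, and Pgam2 and Eno3, the muscle isozymes, were not called. Pgk1 (phosphoglycerate kinase, chromosome X, 106187100 to 106203699) was at 636, 624 and 493 CPM in P3 sham, 750, 682 and 652 in P3 PAB, 426, 366 and 340 in P7 sham, and 1083 and 768 in P7 PAB hearts. It fell by 0.63 with age in sham (SE 0.13, adjusted p = 0.0014) and was higher by 1.29 under PAB at P7 (SE 0.14, adjusted p = 5.8e-06). The fall with age was no longer called without P3 sham 1 (-0.57), P3 sham 2 (-0.58) or P7 sham 3 (-0.56). Without corrections, Pgk1 had the largest change of the 8 genes at P7. It lies on the X chromosome, in a comparison whose groups differ in Xist. Fitted with a term for the Xist and Y class the difference was 1.48. With the length trend removed it was 1.07, below that of Eno1. Gapdh, the most abundant of the 38 per kb in every group, was at 603 ± 91.6 CPM per kb in sham and 704 ± 1.18 in banded hearts at P3 (SD, n = 3 each), and at 652 ± 97.3 (SD, n = 3) and 1216 ± 284 (SD, n = 2) at P7. It was higher by 0.90 under PAB at P7 (SE 0.14, adjusted p = 0.00014).

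Phosphoglycerate mutase and enolase each have a general and a muscle form, and at P7 the general form passed the fold threshold and the muscle form did not. The difference between the forms was not tested. Pgam1 (chromosome 19, 41911923 to 41918660) was at 108, 111 and 93.6 CPM in P3 sham, 142, 129 and 131 in P3 PAB, 89.9, 77.1 and 68.9 in P7 sham, and 176 and 137 in P7 PAB hearts. The P7 difference was 1.00 (SE 0.11, adjusted p = 1.1e-05). Pgam2, the muscle form, was at 280, 287 and 237 CPM in P3 sham, 294, 303 and 310 in P3 PAB, 352, 272 and 273 in P7 sham, and 422 and 367 in P7 PAB hearts. It differed by 0.40 at P7 (SE 0.11, adjusted p = 0.0091), and by -0.00 with the length trend removed. Eno1 (chromosome 4, 150236721 to 150248879) was at 474, 444 and 381 CPM in P3 sham, 516, 523 and 517 in P3 PAB, 340, 263 and 267 in P7 sham, and 725 and 539 in P7 PAB hearts. Its level in the banded hearts of either age was above that of every sham heart, and it was higher by 1.12 at P7 (SE 0.13, adjusted p = 9.2e-06). Eno3, the muscle enolase, was at 898, 972 and 882 CPM in P3 sham, 904, 947 and 951 in P3 PAB, 882, 763 and 747 in P7 sham, and 1255 and 1095 in P7 PAB hearts. It differed by 0.56 at P7 (SE 0.09, adjusted p = 0.00012), just under the fold. It was 0.26 with the length trend removed, and it was called without P7 sham 1 (0.64) or P7 PAB 2 (0.66).

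At P7, Eno1 held 10.5% ± 0.53 of the enolase CPM per kb with sham operation (SD, n = 3) and 14.7% ± 1.41 with PAB (SD, n = 2), and Pgam1 10.1% ± 0.582 and 14.4% ± 0.955 of the mutase. Muscle forms thus remained the larger part in all groups. The neuronal enolase Eno2 was near 2 CPM, at 1.70 and 2.61 in P7 PAB beside 1.58, 1.07 and 1.17 in P7 sham hearts. It rose by 0.75 (SE 0.28, adjusted p = 0.041), but was called in 13 of 22 alternatives, with log2 values of 0.43 to 1.04 and adjusted p up to 0.40. It was not called without P7 sham 2 (0.65), P7 sham 3 (0.70) or P7 PAB 2 (0.43), by DESeq2, or with a term for the Xist and Y class. Pkm, pyruvate kinase, was at 1868 and 1565 CPM beside 1273, 979 and 1028, a rise of 0.65 (SE 0.11, adjusted p = 0.00022), which was not called without P7 sham 2 (0.58) or P7 PAB 1 (0.52). Its M1 and M2 splice forms cannot be separated in counts per gene. Gapdh, Pgk1, Pgam1, Eno1 and Ldha have near-identical copies elsewhere in the mouse genome, and how reads that match several places were counted is not given, so their counts are uncertain by that amount.

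Lactate dehydrogenase interconverts pyruvate and lactate, and the A subunit prevails in glycolytic tissue and the B subunit in the adult heart. Ldha (chromosome 7, 46841475 to 46855627) was at 972, 879 and 793 CPM in P3 sham, 1084, 1027 and 977 in P3 PAB, 710, 593 and 560 in P7 sham, and 1515 and 1182 in P7 PAB hearts. Groups did not overlap between PAB and sham at either age, though narrowly so at P3. It was higher by 1.12 at P7 (SE 0.12, adjusted p = 5.2e-06) and differed by 0.22 at P3 (adjusted p = 0.60) and by -0.51 with age in sham (SE 0.11, adjusted p = 0.0022), which was not called. Ldhb was at 701, 705 and 682 CPM in P3 sham, 678, 699 and 707 in P3 PAB, 772, 711 and 733 in P7 sham, and 1022 and 870 in P7 PAB hearts. The P7 difference of 0.36 (SE 0.08, adjusted p = 0.0016) was short of the fold and was 0.04 with the length trend removed. Ldha made up, of the CPM per kb of Ldha and Ldhb, 37.5% ± 2.09 in sham and 41.3% ± 1.76 in banded hearts at P3 (SD, n = 3 each), and 28.4% ± 1.88 (SD, n = 3) and 40.2% ± 1.47 (SD, n = 2) at P7. Ldhd, which uses D-lactate, was at 2.36 to 5.17 CPM in all libraries, and rose with age in sham by 0.61 (SE 0.18, adjusted p = 0.018). That call was lost without P3 sham 1 (0.44), P3 sham 3 (0.57) or P7 sham 1 (0.55), and with total-count scaling. Over the alternatives the lowest value was 0.30.

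Lactate leaves and enters cells through monocarboxylate transporters, of which MCT1 (Slc16a1) is the main form of heart muscle and MCT4 (Slc16a3) the export form of glycolytic cells. Slc16a3 (ENSMUSG00000025161, chromosome 11, 120948480 to 120960868) was at 15.5, 12.2 and 9.70 CPM in P3 sham, 30.4, 22.2 and 25.8 in P3 PAB, 10.1, 6.12 and 5.16 in P7 sham, and 50.2 and 31.2 in P7 PAB hearts. Banded hearts lay above all sham hearts, whatever the age. The P7 rise of 2.53 (SE 0.24, adjusted p = 2.8e-06) was the largest of the 38. At P3 the difference of 1.07 (SE 0.21) had an adjusted p of 0.074, and it was called in 7 of 23 alternatives, with log2 values of 0.92 to 1.26 over all of them. With age in sham it fell by 0.82 (SE 0.24, adjusted p = 0.017), with groups that overlapped, and the call was lost without P3 sham 1 (-0.64), P7 sham 2 (-0.73) or P7 sham 3 (-0.63). Slc16a1 was at 197, 182 and 168 CPM in P3 sham, 217, 188 and 188 in P3 PAB, 180, 182 and 164 in P7 sham, and 236 and 168 in P7 PAB hearts. It overlapped between PAB and sham at both ages and its P7 difference was 0.20 (SE 0.12, adjusted p = 0.18). Of the CPM per kb of both transporters, Slc16a3 held 5.34% ± 0.773 in sham and 9.87% ± 0.793 in banded hearts at P3 (SD, n = 3 each), and 3.24% ± 1.05 (SD, n = 3) and 14.2% ± 1.16 (SD, n = 2) at P7.

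**Figure D2:**
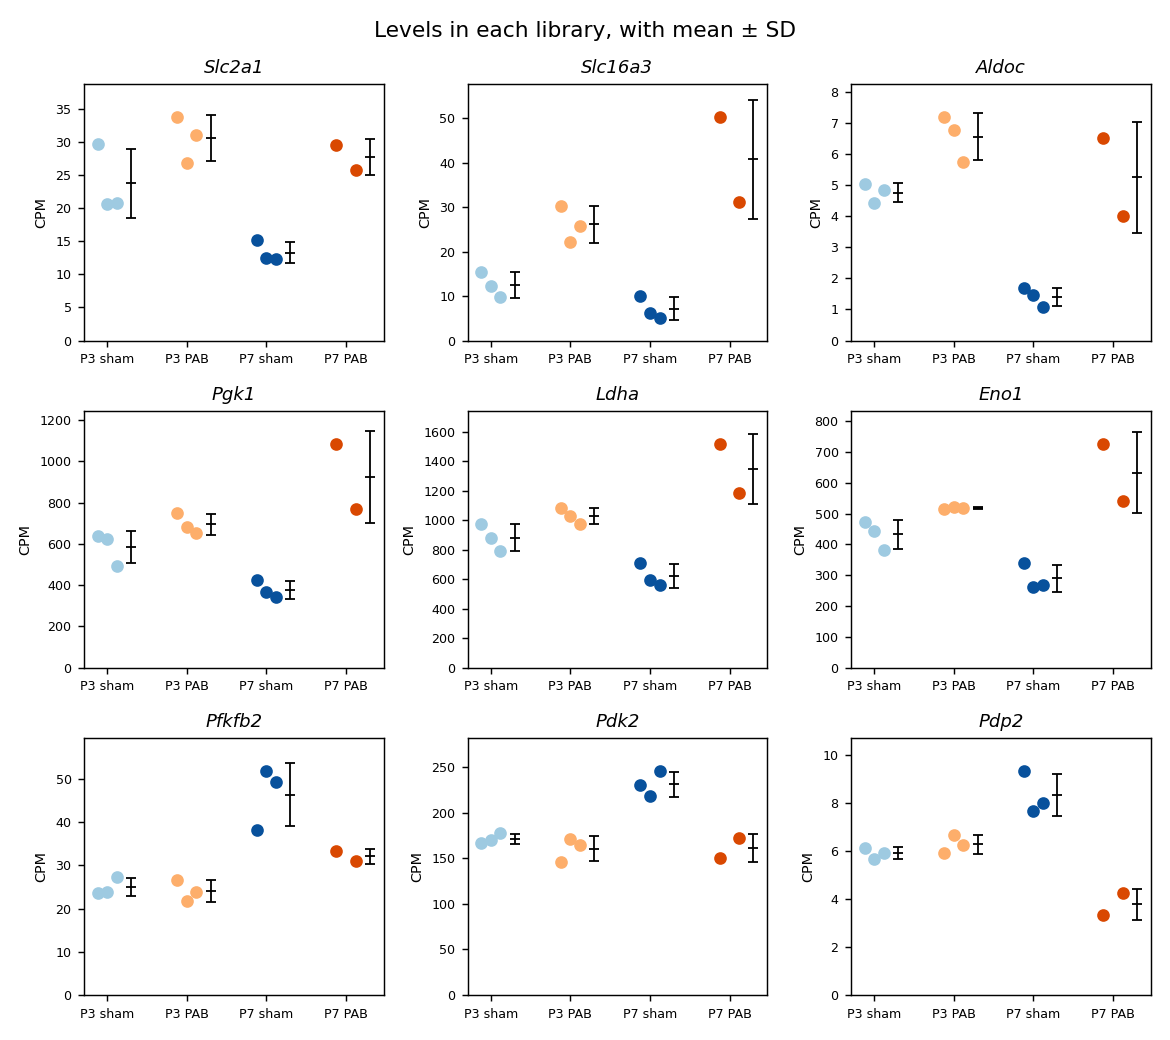
CPM (vertical axis, from 0) of 9 genes in each library (points, by group), with the mean ± SD beside them. In Slc2a1, Slc16a3, Aldoc, Pgk1, Ldha and Eno1 P7 PAB lies above P7 sham, as with Slc16a3 at 31.2 and 50.2 against 5.16 to 10.1; in Pfkfb2, Pdk2 and Pdp2 it lies below.

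The bifunctional enzymes of the PFKFB family set fructose 2,6-bisphosphate, which activates phosphofructokinase. Pfkfb2, the cardiac form (chromosome 1, 130689182 to 130729253), was at 23.5, 23.9 and 27.4 CPM in P3 sham, 26.7, 21.7 and 23.9 in P3 PAB, 38.1, 51.7 and 49.2 in P7 sham, and 33.3 and 30.9 in P7 PAB hearts. It rose with age in sham by 0.90 (SE 0.11, adjusted p = 3.0e-05), against 0.41 in PAB hearts (SE 0.12, adjusted p = 0.013), which was not called. P7 PAB was below P7 sham by 0.53 (SE 0.12, adjusted p = 0.0026), not called. The other 3 were lower in level, with Pfkfb3 at 10.0 to 13.1, Pfkfb4 at 4.15 to 6.21 and Pfkfb1, on the X chromosome, at 2.01 to 3.52 CPM over all libraries. None of the 3 was called, beside 9.63% of all genes called higher and 8.59% lower at P7. Their P7 differences were -0.09, -0.15 and 0.19. Pfkfb2 made up 49.1% ± 1.21 of the family's CPM per kb in P3 sham, and at P7 65.3% ± 4.45 with sham operation (SD, n = 3 each) and 57.8% ± 1.01 with PAB (SD, n = 2).

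Among the kinases of pyruvate dehydrogenase, 0 of 3 were called in the 4 comparisons of 2 groups. At P7, 9.63% of all genes were called higher and 8.59% lower, and 0 is near that share for so few genes. Pdk2 passed the interaction test (-0.43, adjusted p = 0.015), as did 25.9% of all genes. Summed CPM per kb of Pdk1, Pdk2 and Pdk4 was 168 ± 2.78 in sham and 175 ± 5.23 in banded hearts at P3 (SD, n = 3 each), and 169 ± 18.2 (SD, n = 3) and 175 ± 11.7 (SD, n = 2) at P7, with groups that overlapped. Pdk2, a form found in most tissues, was at 167, 170 and 178 CPM in P3 sham, 145, 171 and 165 in P3 PAB, 230, 218 and 245 in P7 sham, and 150 and 172 in P7 PAB hearts. P7 sham was above all the other libraries, by 0.43 over P3 sham (SE 0.08, adjusted p = 0.00067) and with P7 PAB at -0.52 against it (SE 0.09, adjusted p = 0.00023). Neither difference reached the fold required. Pdk4, the form induced by fasting and fatty acids, was at 317, 347 and 330 CPM in P3 sham, 391, 327 and 357 in P3 PAB, 204, 264 and 312 in P7 sham, and 307 and 363 in P7 PAB hearts. It overlapped at P7, where the difference was 0.36 (SE 0.13, adjusted p = 0.038). Pdk1, a target of the hypoxia factor HIF1, differed at P7 by 0.39 (SE 0.10, adjusted p = 0.0054), and by 0.64 with a term for the Xist and Y class, where it was called. Pdk2 held 43.5% ± 3.98 of the kinases' CPM per kb with sham operation at P7 (SD, n = 3) and 29.1% ± 0.818 with PAB (SD, n = 2).

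Of the phosphatases, Pdp2 fell. It was at 6.14, 5.67 and 5.93 CPM in P3 sham, 5.89, 6.67 and 6.25 in P3 PAB, 9.31, 7.68 and 8.01 in P7 sham, and 3.32 and 4.24 in P7 PAB hearts. P7 PAB was below every other library, on 76 and 86 counts, by 1.14 on the log2 scale against P7 sham (SE 0.15, adjusted p = 2.4e-05) and by 0.74 against P3 PAB (SE 0.15, adjusted p = 0.00096). Pdp2 was the 1 gene of the 38 called lower at P7, and all 23 alternatives called it. Pdp1, the more abundant at 8.70 ± 0.523 CPM per kb in P7 sham beside 1.46 ± 0.152 for Pdp2 (SD, n = 3), overlapped between PAB and sham at P7, with a difference of -0.08 (SE 0.08, adjusted p = 0.44).

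Of the 5 glycogen genes 0 were called at either age between PAB and sham, which at P7 stands beside 9.63% of all genes called higher and 8.59% lower and is near that share for so few genes. At P7 the differences were 0.17 for glycogen synthase (Gys1, adjusted p = 0.11), 0.47 for Ugp2, which makes UDP-glucose (adjusted p = 0.0011), 0.55 for the branching enzyme Gbe1 (adjusted p = 0.0031), -0.29 for muscle phosphorylase (Pygm, adjusted p = 0.0076) and 0.04 for brain phosphorylase (Pygb, adjusted p = 0.72). Ugp2 rose with age in PAB hearts, from 165, 155 and 152 CPM at P3 to 268 and 234 at P7 (log2 0.68, SE 0.10, adjusted p = 6.4e-05), beside 0.36 in sham (adjusted p = 0.0055). That call was lost without P7 PAB 1 (0.57), with total-count scaling (0.42) and with the length trend removed (0.57). Pygm held 57.7% ± 0.435 of the phosphorylase CPM per kb in P3 sham, and at P7 62.8% ± 2.29 with sham operation (SD, n = 3 each) and 57.4% ± 3.24 with PAB (SD, n = 2).

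In 10 of the 12 families, a form known from striated muscle or the adult heart was followed. In each it held its largest mean share in P7 sham hearts. These forms are Slc2a4, Hk2, Pfkm, Aldoa, Pgam2, Eno3, Ldhb, Slc16a1, Pfkfb2 and Pygm. The PDK and PDP families were left out of this count. There Pdp1 held 83.2, 87.0 and 86.5% in P7 sham and 93.7 and 91.2% in P7 PAB hearts. Pdk4 held 38.3, 44.8 and 47.4% in P7 sham and 52.4 and 56.4% in P7 PAB hearts, while the share of Pdk2 was lower with PAB. In each of the 10, both P7 PAB libraries were below the lowest P7 sham value. How often the isoforms of other gene families separate in this way was not measured. At P7, 51.9% of all genes had an unadjusted p under 0.05 in edgeR. The same libraries also split by Xist and Y transcripts. The shares are a description with no test, and those of 1 family are not independent, since they add up to the whole. A share within a library does not depend on how libraries are scaled. The part of the length slope of the P7 PAB libraries in the shares was not tested.

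**Figure D3:**
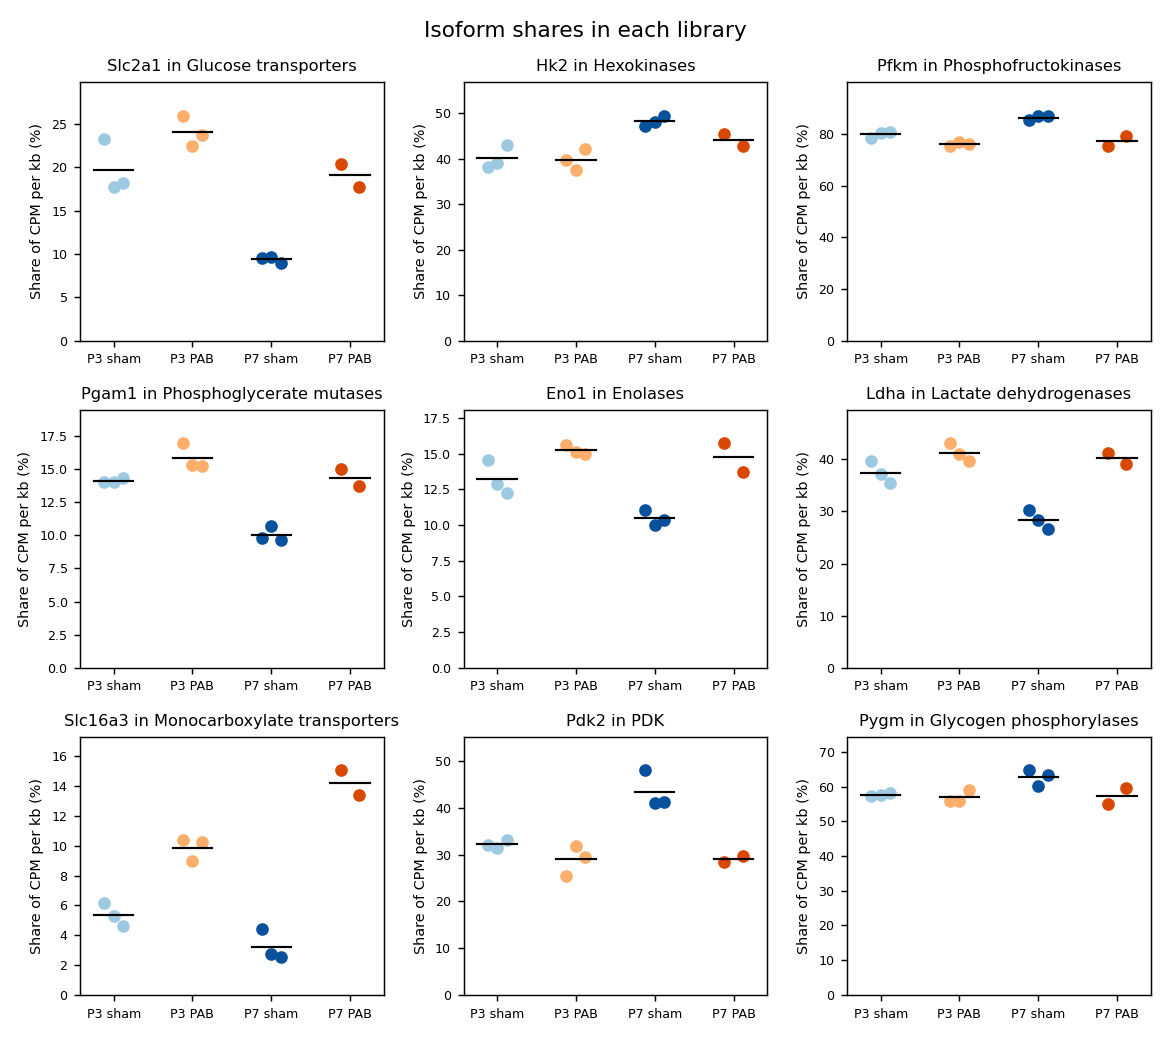
Share (percent, vertical axis from 0) of 1 isoform in the CPM per kb of its family, in each library (points) with the group mean (line). The P7 sham points are the lowest of all for Slc2a1, Pgam1, Eno1, Ldha and Slc16a3 and the highest for Hk2, Pfkm, Pdk2 and Pygm, as with Ldha at 26.6 to 30.4% against 35.5% or more elsewhere.

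With age alone, in P7 against P3 sham hearts, 2 of 38 genes rose (Ldhd and Pfkfb2) and 4 fell (Slc2a1, Aldoc, Pgk1 and Slc16a3), where 5.62% of all genes were called higher and 5.73% lower. Markers also moved with age in sham, and their part in these results was not tested. Of 7 erythroid genes 2 were called lower, with a summed level of 2259 to 3773 CPM at P3 and 2247 to 3044 at P7. Of 8 fibroblast genes 2 were higher, with sums of 4696 to 5216 and 5999 to 6067 CPM. Of 5 smooth muscle and 7 macrophage genes 2 each were higher. Of 7 endothelial genes 0 were called, with sums of 1592 to 1661 and 1890 to 1976 CPM. Of 3 ventricular genes 1 was lower. The members' median was -0.04, beside 0.00 over all genes, and 0.01 without P3 sham 1, -0.00 without P7 sham 3 and -0.09 without P3 sham 3. Scaled by total count, which moves the median of all genes by 0.31 downward, 1 rose and 10 fell, where 2.51% of all genes rose and 18.2% fell. In banded hearts, 3 of 38 rose between P3 and P7 (Gapdh at 0.79, Slc16a3 at 0.64 and Ugp2 at 0.68) and Pdp2 fell. There 9.5% of all genes were called higher and 8.2% lower. Markers moved there too, and their part was not tested. Of 10 cardiomyocyte genes 2 were lower, with sums of 62308 to 68717 CPM at P3 and 53482 to 59855 at P7. Of 3 ventricular genes 1 was lower, with sums of 7230 to 7691 and 9764 to 10384 CPM. Atrial genes had 2 lower, fibroblast and smooth muscle genes 2 higher each, and endothelial and macrophage genes 1 higher each. Without P7 PAB 1, where 7.33% of all genes rose, or scaled by total count, where 4.08% did, 0 members rose with age in banded hearts. Slc16a3 was also not called without P3 PAB 2 (0.54) or P3 PAB 3 (0.62), by DESeq2 (0.63) or with the replicate block (0.51), and Pdp2 was not called without P7 PAB 1 (-0.57). The age and the PAB comparisons share libraries, so P7 sham enters both the fall of Slc2a1, Aldoc, Pgk1 and Slc16a3 with age and their rise under PAB. The direct test of whether the PAB difference changed between P3 and P7 (interaction, adjusted p of at most 0.05) was passed by 18 of 38 members, where 25.9% of all genes passed. The PAB difference was larger at P7 in 14 of the 18 and smaller or negative in Hk2, Pfkfb2, Pdk2 and Pdp2.

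**Figure D4:**
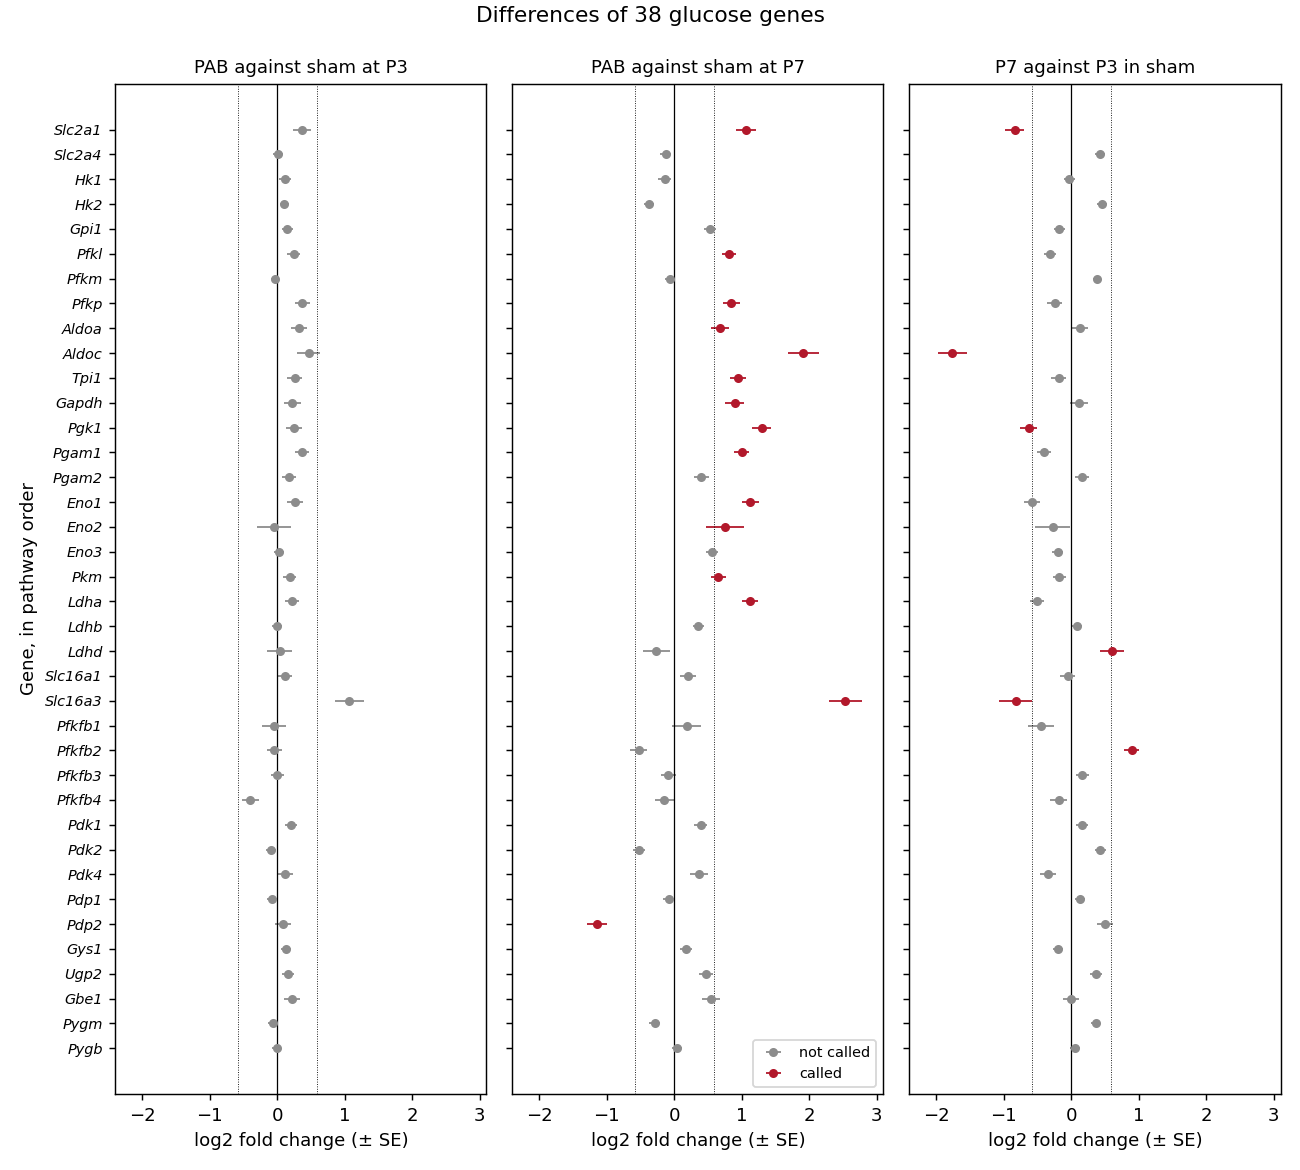
Log2 fold change ± SE (horizontal axis) of the 38 genes in pathway order, for PAB against sham at P3 (left) and P7 (middle) and for P7 against P3 in sham (right); red points were called, grey were not, and dotted lines mark a fold of 1.5. At P3 0 genes are red, at P7 14 are red to the right of 0 and Pdp2 to the left, and with age 2 are red to the right and 4 to the left.

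The P7 counts depend on which libraries and corrections are used. P7 PAB 1 was above P7 PAB 2 for most glycolytic genes, and without it 11 were higher and 2 lower, with Pfkp (0.58), Aldoa (0.50) and Pkm (0.52) no longer called, beside 7.29% and 6.57% of all genes. With the length trend removed, 15 were higher and 2 lower, beside 6.39% and 7.05% of all genes. The log2 difference was then 2.59 for Slc16a3, 0.97 for Slc2a1, 0.94 for Pfkl and 0.78 for Tpi1. For the isozyme pairs it was 0.74 for Pgam1 and -0.00 for Pgam2, 1.19 for Eno1 and 0.26 for Eno3, and 1.01 for Ldha and 0.04 for Ldhb. With a term for the Xist and Y class, 15 were higher and 2 lower, beside 7.67% and 5.93% of all genes. Slc16a3 then differed by 3.02, Slc2a1 by 1.59, Pfkl by 0.96 and Tpi1 by 1.16. The pairs then stood at 1.07 for Pgam1 and 0.49 for Pgam2, at 1.32 for Eno1 and 0.51 for Eno3, and at 1.34 for Ldha and 0.37 for Ldhb. Slc2a1, Pfkl, Aldoc, Tpi1, Gapdh, Pgk1, Pgam1, Eno1, Ldha and Slc16a3 were called higher in all 23 alternatives. The members' median exonic length was 4466.5 bases, beside 4176 over all genes tested with a length.

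Other genes of glucose use, from lists kept apart from the 38, were tested in the same way at P7, where 9.63% of all genes were called higher and 8.59% lower. Of 5 tested genes of glucose transport and hexokinase and of 5 of glycolysis (Tigar and Bpgm among them), 0 were called. Of 6 genes of lactate and pyruvate transport, Emb, a partner of monocarboxylate transporters, rose (0.78, adjusted p = 0.029) and Slc16a7, or MCT2, fell by 0.99 (adjusted p = 0.00011). Of 8 genes of the pyruvate dehydrogenase complex and its control, Pdk3 rose (0.77) and Pdpr, the regulatory subunit of the phosphatase, fell by 0.80 (adjusted p = 3.5e-05), from 48.9 to 64.7 CPM in P7 sham to 30.3 and 35.2 in P7 PAB hearts. Pdk3 lies on the X chromosome in mice. Of 19 further glycogen genes 3 rose and 3 fell. The glycogen primer Gyg rose by 1.01 (adjusted p = 7.9e-07), the glycogen-binding Stbd1 by 1.03 and liver phosphorylase Pygl by 0.69, while the phosphorylase kinase subunit Phkg1 (-1.67) and the phosphatase targeting subunits Ppp1r3a (-0.63) and Ppp1r3c (-0.62) fell.

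Against the same shares of all genes (9.63% higher, 8.59% lower), of 11 genes of the pentose phosphate, polyol and hexosamine routes Pgls rose (0.74) and Gfpt2 fell by 0.73. Of 24 regulators of glucose use, 0 rose and 4 fell: Epas1 (-0.63), Mlxipl (-0.64), Ppara (-1.11, adjusted p = 1.8e-06) and Ppargc1a (-1.25, adjusted p = 6.7e-06). Ppara and Ppargc1a drive fatty acid oxidation and mitochondrial genes, and Ppargc1a was at 163 to 239 CPM in P7 sham beside 81.5 and 95.1 in P7 PAB hearts. Hif1a, the hypoxia factor whose known targets include Slc2a1, Pgk1, Ldha and Slc16a3, differed by -0.12 in its mRNA at P7 (adjusted p = 0.23). Its protein was not measured, and its part in the results was not tested. Of 27 genes of fatty acid oxidation, 3 rose, Angptl4 (by 2.09) and Echs1 (by 0.65) among them, and 0 fell. At P3, 0 genes of these lists were called between PAB and sham.

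The sequence before the start is shown for 8 genes of lower glycolysis and lactate handling, among them 3 pairs of isozymes, picked with their P7 changes known. RefSeq (GRCm38.p6) held 56 windows for 36 of the 38 genes, and none was matched for Slc2a4 or Pdp1. Each window is the 250 bases before a start, written 5′ to 3′ on the strand of the gene. The motif searched was ACGTG or its reverse complement CACGT, the core of the element bound by HIF1 and also part of the E-box CACGTG, which counts as 1 site. It was in 16.6% of all 32851 windows and in 22 of the 56 windows of the members (39.3%), from 18 members. The members' windows also held more CpG, with a median of 11.5 against 6 in all windows, and the motif contains a CpG. Capitals mark the motif, and the window shown is the first that the table lists for the gene.
Ldha, chr7:46845554-46845803, plus strand: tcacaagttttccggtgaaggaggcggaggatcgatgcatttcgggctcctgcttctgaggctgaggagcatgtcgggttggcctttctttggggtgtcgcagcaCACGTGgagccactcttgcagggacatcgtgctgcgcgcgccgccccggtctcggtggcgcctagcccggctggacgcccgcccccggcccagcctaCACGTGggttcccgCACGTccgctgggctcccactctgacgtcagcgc
Slc16a3, chr11:120948817-120949066, plus strand: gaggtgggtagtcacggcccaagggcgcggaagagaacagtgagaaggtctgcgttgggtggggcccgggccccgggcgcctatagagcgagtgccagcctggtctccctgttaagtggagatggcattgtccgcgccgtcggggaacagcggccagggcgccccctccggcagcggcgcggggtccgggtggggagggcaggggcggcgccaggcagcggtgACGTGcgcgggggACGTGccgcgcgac
Pgk1, chrX:106186850-106187099, plus strand: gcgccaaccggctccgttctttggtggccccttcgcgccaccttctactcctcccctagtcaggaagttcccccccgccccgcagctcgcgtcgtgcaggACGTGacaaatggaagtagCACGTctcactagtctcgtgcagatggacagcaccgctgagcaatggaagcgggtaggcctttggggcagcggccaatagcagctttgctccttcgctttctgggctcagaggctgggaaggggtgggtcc
Pgam1, chr19:41911621-41911870, plus strand: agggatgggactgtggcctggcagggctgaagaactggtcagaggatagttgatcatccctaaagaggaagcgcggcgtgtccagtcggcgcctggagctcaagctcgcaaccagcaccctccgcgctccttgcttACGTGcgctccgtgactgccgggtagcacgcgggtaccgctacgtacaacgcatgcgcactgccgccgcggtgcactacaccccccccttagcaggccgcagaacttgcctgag
Eno1, chr4:150236458-150236707, plus strand: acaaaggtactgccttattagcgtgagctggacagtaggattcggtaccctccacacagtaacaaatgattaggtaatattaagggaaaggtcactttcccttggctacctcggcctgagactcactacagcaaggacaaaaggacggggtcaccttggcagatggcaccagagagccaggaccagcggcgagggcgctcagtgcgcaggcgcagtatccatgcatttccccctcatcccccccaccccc
Ldhb, chr6:142507958-142508207, minus strand: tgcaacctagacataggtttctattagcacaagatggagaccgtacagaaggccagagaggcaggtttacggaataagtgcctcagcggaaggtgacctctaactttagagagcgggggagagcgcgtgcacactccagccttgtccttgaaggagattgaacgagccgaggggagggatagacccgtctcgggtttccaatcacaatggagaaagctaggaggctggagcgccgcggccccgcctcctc
Pgam2, chr11:5803797-5804046, minus strand: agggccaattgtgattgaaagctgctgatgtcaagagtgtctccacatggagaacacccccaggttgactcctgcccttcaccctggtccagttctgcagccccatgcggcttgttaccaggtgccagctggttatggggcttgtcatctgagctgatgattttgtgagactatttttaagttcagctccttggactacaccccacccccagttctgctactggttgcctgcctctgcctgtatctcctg
Eno3, chr11:70656926-70657175, plus strand: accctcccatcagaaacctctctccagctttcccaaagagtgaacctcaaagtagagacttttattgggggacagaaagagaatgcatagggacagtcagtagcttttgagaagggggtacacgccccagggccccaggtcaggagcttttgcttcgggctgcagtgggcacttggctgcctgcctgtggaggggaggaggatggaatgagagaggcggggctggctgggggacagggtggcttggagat
These windows held 3 sites for Ldha, 2 for Slc16a3, 2 for Pgk1 and 1 for Pgam1, and 0 for Eno1, Ldhb, Pgam2 and Eno3. Which window is read matters. For Ldha, Pgam1, Eno1, Pgam2 and Eno3 the bases just after the start of the window shown were not found in a GENCODE M21 transcript of the gene, whereas they were for 43 of the 56 windows of the members. Ldha has a second window, which matches a transcript, with 0 sites, and both further windows of Eno1 match one and also hold 0. In other families the motif lay otherwise. Pfkl held 0 sites and Pfkm 1 in 2 of its 4 windows, Aldoc held 0 and Aldoa 1 in 2 of 3, Hk1 held 0 and Hk2 2, and Slc16a1 held 1. Tpi1 and Gapdh, both called higher at P7, held 0. A match is a string of letters and not a site shown to be bound, and a window without one says nothing of a factor that may bind elsewhere.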

How the data were processed

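The deposited table holds whole counts per gene, 1 column per library, without normalization. The authors aligned paired-end reads to GRCm38 (mm10) with STAR 2.5.2b and the Gencode annotation. The counting tool, strand setting and Gencode release are not given in the sources used here. Groups came from the sample labels. The members, gene lists, tests and alternatives were chosen with earlier results of these data known.

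The count tests used edgeR 4.0.16 in R 4.3.3 with TMM, filterByExpr and the quasi-likelihood test. The 4 groups shared 1 estimate of the spread, since P7 PAB holds 2 libraries. Full statistics were given to members called at P7 or with age at 10 CPM or more, at most 8 per comparison, and to both isoforms of a family where 1 was called, and the others by step. Gene names were matched to GENCODE M21 for exonic length (47834 of 50600 names matched 1 gene, 65 several and 2701 none). Log2 CPM for the length trend used a prior count of 2 and a lowess span of 0.3. Isoform shares are shares of CPM per kb. Python 3.11.15 with matplotlib 3.10.9 drew the figures.

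On simulated counts, 85.5% of 200 genes changed 2-fold were called at P3 (3 false calls among 15541 genes) and 85% at P7 (8 among 15553). Alternatives were RLE size factors, total-count scaling, 2 filters, DESeq2 1.42.0, no fold threshold, a fit of 2 groups, a replicate block, removal of the length trend, both together, a term for the Xist and Y class, and leaving out each library. The Xist and Y class together with the length trend was added after seeing the data. The result of 1 gene of the fatty acid oxidation list is not reported here.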

Additional observations from a re-analysis of the deposited data

Results flagged for a closer look

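For 18 of the 38 genes the PAB difference at P7 differed from that at P3 by the interaction test (edgeR, adjusted p of at most 0.05), where 25.9% of all genes tested passed it. In the values that follow, each is the log2 PAB difference at P7 minus that at P3. Among the transporters it was 0.70 for Slc2a1 and 1.47 for Slc16a3. In upper glycolysis it was 0.38 for Gpi1, 0.57 for Pfkl, 1.45 for Aldoc and 0.69 for Tpi1. In lower glycolysis it was 0.68 for Gapdh, 1.04 for Pgk1, 0.63 for Pgam1, 0.86 for Eno1, 0.53 for Eno3 and 0.47 for Pkm. It was 0.89 for Ldha and 0.36 for Ldhb. It was negative for Hk2 (-0.48), Pfkfb2 (-0.48), Pdk2 (-0.43) and Pdp2 (-1.23). Aldoc, Tpi1, Pgk1, Eno1, Ldha, Slc16a3 and Pdp2 passed in all 22 alternatives that give this test. Hk2, Pfkl, Gapdh and Pdk2 passed in 21, Slc2a1 and Pgam1 in 20 and Eno3 in 19. Ldhb passed in 16, Gpi1 in 14, Pkm in 13 and Pfkfb2 in 8. The lowest values over the alternatives were 0.25 for Eno3, 0.088 for Ldhb, 0.24 for Gpi1 and 0.33 for Pkm. The P7 groups also differ in Xist and Y transcripts, and without P7 PAB 1 the number that passed was 9, where 7.98% of all genes passed with a positive and 8.26% with a negative difference.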

How the results depend on the processing

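No called value of a member changed sign in any alternative. At P7, 13 to 16 members were called higher and 1 to 2 lower when single libraries other than those of P7 PAB were left out. There 8.3 to 11.3% of all genes were called higher and 6.96 to 9.7% lower. The lower count was 2 without P7 sham 1. Without P7 PAB 1 the members' median log2 difference was 0.27, and without P7 PAB 2 it was 0.49. With no fold change threshold, 22 were higher and 5 lower (22.8% and 22.1% of all genes). The lower count was also 2 with the length trend removed, with that and the replicate block, with a term for the Xist and Y class, and with both corrections together, which was chosen after seeing the data; the second gene was Pdk2 or Pfkfb2. At P3 the count of higher members was 1, Slc16a3, with no filter on low counts (where the prior degrees of freedom of the fit were infinite), in the fit of 2 groups, and with the replicate block, alone or with the length trend removed, and 0 to 1 over the left-out libraries (1 without P7 sham 1, P7 PAB 1 or P7 PAB 2). With age in sham, 9 rose and 9 fell with no fold change threshold (16.2% and 16.8% of all genes). With total-count scaling 1 rose and 10 fell (2.51% and 18.2%). Without single libraries other than those of P7 PAB, 1 to 2 rose and 2 to 7 fell. There 4.74 to 5.68% of all genes rose and 4.86 to 6.3% fell. The count of rises was 1 without P3 sham 1, P3 sham 3 or P7 sham 1. Falls numbered 2 without P3 sham 1 or P7 sham 3, and 7 without P7 sham 1. With age in PAB hearts, 15 rose and 2 fell with no fold change threshold (22.3% and 21.2%), 0 rose with total-count scaling (4.08%), 1 rose with the length trend removed and the replicate block, and 0 to 6 rose without single libraries (0 without P7 PAB 1, 6 without P7 PAB 2), with 1 fall in each. The interaction count ranged from 9, without P7 PAB 1, to 21 over the left-out libraries. The cause of these shifts was not tested, beyond the missing threshold. The labels number the replicates, and the deviations of same-numbered libraries had low correlations (-0.05 to 0.14). Libraries of different numbers were not compared, so whether the numbers pair them cannot be told from this. With the replicate block 13 members were higher and 1 lower at P7 (8.96% and 7.67% of all genes). The interaction was passed by 19, where 12.6% of all genes passed with a positive and 11.9% with a negative difference. Genes under 5 CPM in some libraries (Aldoc, Eno2, Ldhd, Pfkfb1, Pfkfb4 and, in P7 PAB, Pdp2) rest on few reads.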
